A study of Homo sapiens with 11 samples.

Results

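NF-kB target genes and inflammatory cytokines were followed across 9 conditions in T47D cells, an established estrogen receptor-positive breast cancer line. The group comprised 34 genes, listed by name for their place in NF-kB signalling: inhibitors and feedback proteins, NF-kB subunits, chemokines, cytokines, adhesion and surface molecules, survival and TRAF proteins, and a few other targets. The genes were chosen with earlier results of these data known, which limits every contrast below with all probe sets. Of these, 32 were measured, by 60 of the 54613 probe sets that remained after control probe sets were left out. A probe set, the measuring unit of this Affymetrix array, is a group of short oligonucleotides to one transcript. Of the measured genes, 15 had 1 probe set and 17 had several, up to 7 for CYLD. BCL3 was covered only by probe sets annotated to several genes, and BIRC3 was not analysed here. Another 6 probe sets that named a member together with another gene were left out, so SOD2 rests on the single probe set 1566342_at.

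NF-kB is a family of dimeric transcription factors held in the cytoplasm by inhibitory IkB proteins. Signals such as TNF, interleukin-1 or cell stress lead to degradation of the inhibitor, after which the dimers enter the nucleus and switch on chemokines, cytokines and adhesion molecules. They also switch on their own inhibitors, NFKBIA and TNFAIP3, which close a negative feedback loop. In estrogen receptor-positive breast cancer cells the estrogen receptor and NF-kB are known to influence each other's target genes.

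Steroid hormones were first withdrawn from all cells by 4 h of culture with 10% serum stripped on charcoal, and the exposures then lasted 3 h. The conditions were no addition (control, 2 arrays), 1 µM E2-BSA (2 arrays), and 1 array each of 1 µM estradiol, 0.1% ethanol, 1 µM BSA, 10 µM ICI, 10 µM G15, and E2-BSA combined with either ICI or G15 at the same concentrations. E2-BSA is estradiol linked to bovine serum albumin, a conjugate used to address receptors at the cell surface, and BSA is the carrier alone. The labels name ethanol as the vehicle for estradiol. ICI is named only by that abbreviation, and G15 is known as an antagonist of the G protein-coupled estrogen receptor. The labels do not say that repeated arrays came from separate cultures, so p-values measure the spread between arrays, which may be technical, and 7 of the 9 conditions rest on 1 array.

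The 11 arrays fell into 2 sets along the first principal component of all probe sets, which held 71.0% of the variance. The smaller set held control 1, E2-BSA 1 and estradiol, and the larger set held control 2, E2-BSA 2 and the other 6 arrays. The 5' minus 3' signal of the ACTB control probes is commonly read as a sign of how intact the labelled RNA is. It averaged 0.737 ± 0.0760 (log2, SD, n = 3) over the smaller set, while the larger set averaged -0.111 ± 0.132 (SD, n = 8). The 18S rRNA control probes differed more, at 1.54 ± 0.0918 (SD, n = 3) against -0.21 ± 0.160 (SD, n = 8). What separates the sets was not tested. Every comparison was therefore taken within a set, or with the set as a block in the fit. The deposited values are on a log2 scale and centred for each probe set, so they show differences between arrays but no level, and the T47D identity could not be checked against marker levels. These are also bulk RNA samples, in which fewer cells that express a gene and less RNA per cell cannot be told apart.

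The promoter sequences of these genes were also described. RefSeq promoters (GRCh38.p14, 250 bases before to 50 after each start site) were searched on both strands for the 10-base kappaB consensus. This general recognition sequence of NF-kB dimers was taken as GGG, purine, any base, A or T, pyrimidine, pyrimidine and CC. No mismatch was allowed. A match was present in 18 of the 28 measured members with a promoter entry (64.29%), against 1937 of all 27305 genes (7.09%). The genes were listed for their place in NF-kB signalling, so this excess is no separate finding. CCL2, LIF, NFKBIE and RELB had no promoter entry. The sequences below are those of genes that were higher on the ethanol array, with each match in capitals and written 5' to 3' on the gene's own strand. Overlapping matches are capitalised as 1 run.
CXCL1 (chr4:73869284-73869354, plus strand): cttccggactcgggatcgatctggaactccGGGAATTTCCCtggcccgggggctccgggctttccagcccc
CXCL2 (chr4:74099233-74099303, minus strand): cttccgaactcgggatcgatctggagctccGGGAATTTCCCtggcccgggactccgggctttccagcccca
CXCL3 (chr4:74038728-74038798, minus strand): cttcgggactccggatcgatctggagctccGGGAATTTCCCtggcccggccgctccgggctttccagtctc
CCL20 (chr2:227813733-227813802, plus strand): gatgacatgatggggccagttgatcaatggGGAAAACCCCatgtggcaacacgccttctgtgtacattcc
TNFAIP3 (chr6:137867162-137867243, plus strand): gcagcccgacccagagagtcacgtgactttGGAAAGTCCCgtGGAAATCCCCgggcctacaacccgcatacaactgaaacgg
NFKBIA (chr14:35404791-35404860, minus strand): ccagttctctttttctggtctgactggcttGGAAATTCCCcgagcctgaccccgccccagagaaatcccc
NFKB2 (chr10:102394441-102394511, plus strand): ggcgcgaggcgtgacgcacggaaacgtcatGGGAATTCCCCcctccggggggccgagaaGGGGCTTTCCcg
IRF1 (chr5:132490784-132490853, minus strand): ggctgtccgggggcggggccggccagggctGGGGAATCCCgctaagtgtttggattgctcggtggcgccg
CD83 (chr6:14117666-14117737, plus strand): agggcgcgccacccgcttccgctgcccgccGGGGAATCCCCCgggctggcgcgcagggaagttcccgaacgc

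The 3 neighbouring CXC chemokine genes carried the same match, GGGAATTTCC, beginning 79 bases upstream of the start site in CXCL1 and CXCL3 and 78 bases upstream in CXCL2. TNFAIP3 carried 2 separate matches, at 67 and 55 bases upstream. The next sequences are from members that no probe set showed as higher on ethanol, and they carry matches too.
IL6 (chr7:22727097-22727166, plus strand): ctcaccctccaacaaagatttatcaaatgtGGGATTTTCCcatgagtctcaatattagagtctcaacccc
VCAM1 (chr1:100719650-100719719, plus strand): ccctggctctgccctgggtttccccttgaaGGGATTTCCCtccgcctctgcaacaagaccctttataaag
NFKB1 (chr4:102501280-102501349, plus strand): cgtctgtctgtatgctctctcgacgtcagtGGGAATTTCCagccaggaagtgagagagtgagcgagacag
TNIP1 (chr5:151081037-151081106, minus strand): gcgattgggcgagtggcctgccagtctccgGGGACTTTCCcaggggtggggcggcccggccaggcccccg

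**Figure D1:**
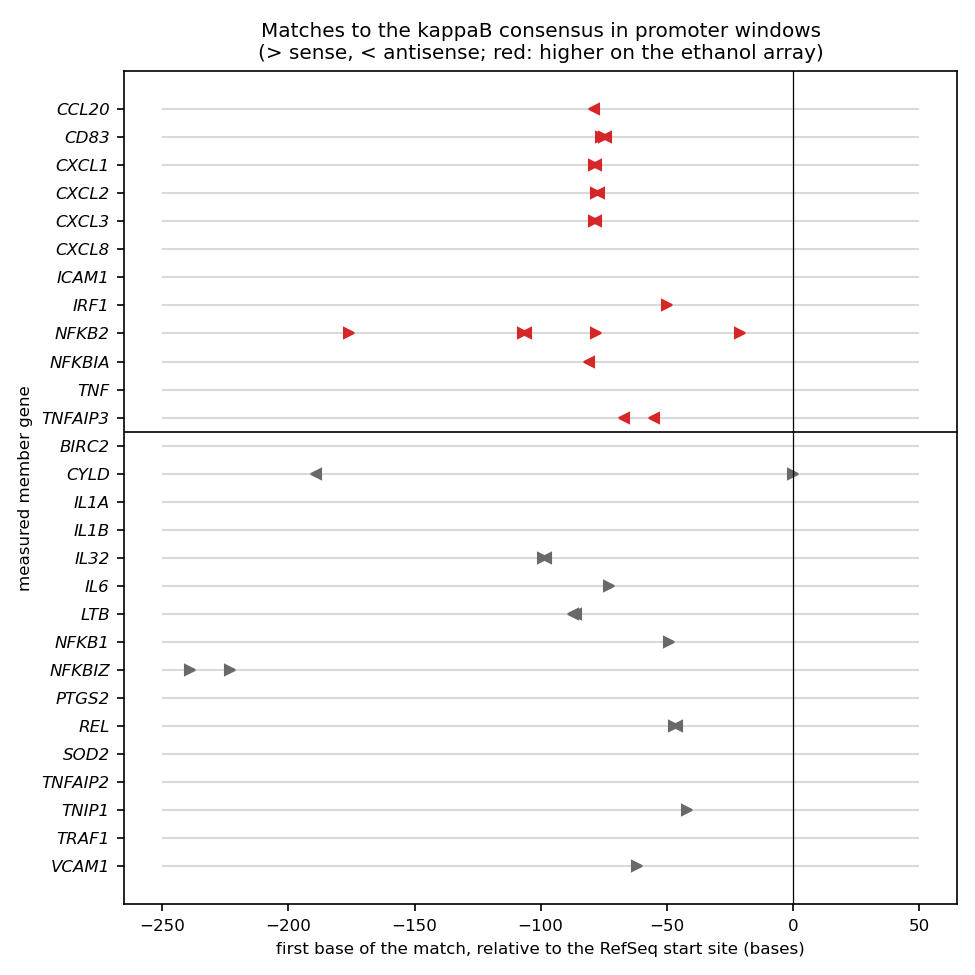
Positions of kappaB consensus matches in the promoter windows of measured members, in bases from the RefSeq start site (horizontal axis), with 1 row per gene. Triangles point right for matches on the gene's strand and left for the opposite strand. Red genes, in the upper block, had a probe set higher on ethanol (9 of 12 with a match), and grey genes had none (9 of 16 with a match).

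A match was found in 9 of the 12 genes with a probe set higher on ethanol (75.0%) and in 9 of the 16 others (56.25%). CXCL8, ICAM1 and TNF, all higher on ethanol, had no exact match to this pattern in the window. Sites that depart from the pattern in any base are missed, so a kappaB site is not shown to be absent there. A match is a description of the letters and was not tested as a binding site.

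Ethanol against control was the comparison in which these genes moved, and they moved upward. The rise covered CXC chemokines and CCL20, TNF, IRF1, ICAM1, CD83, the feedback inhibitors TNFAIP3 and NFKBIA, and the subunits NFKB2 and RELB. The largest fitted differences were 3.39 (log2) for TNFAIP3, 3.21 for CXCL2 and 2.97 for CCL20, from 1 ethanol array. With the array set as a block, limma called 15 of the 60 member probe sets higher and 0 lower at a Benjamini-Hochberg adjusted p under 0.05, while 0.287% of all probe sets were called in either direction and 0.227% were called higher. The median difference was 0.23 over the 60 member probe sets and -0.0047 over all probe sets. A positive difference was seen in 50 of the 60, against 48.9% of all. At least 1 probe set was called in 13 of the 32 measured genes and none in the other 19. The per-array values below describe probe sets picked by this call. That the ethanol array stands apart in them was favoured in advance and is no separate support.

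**Figure D2:**
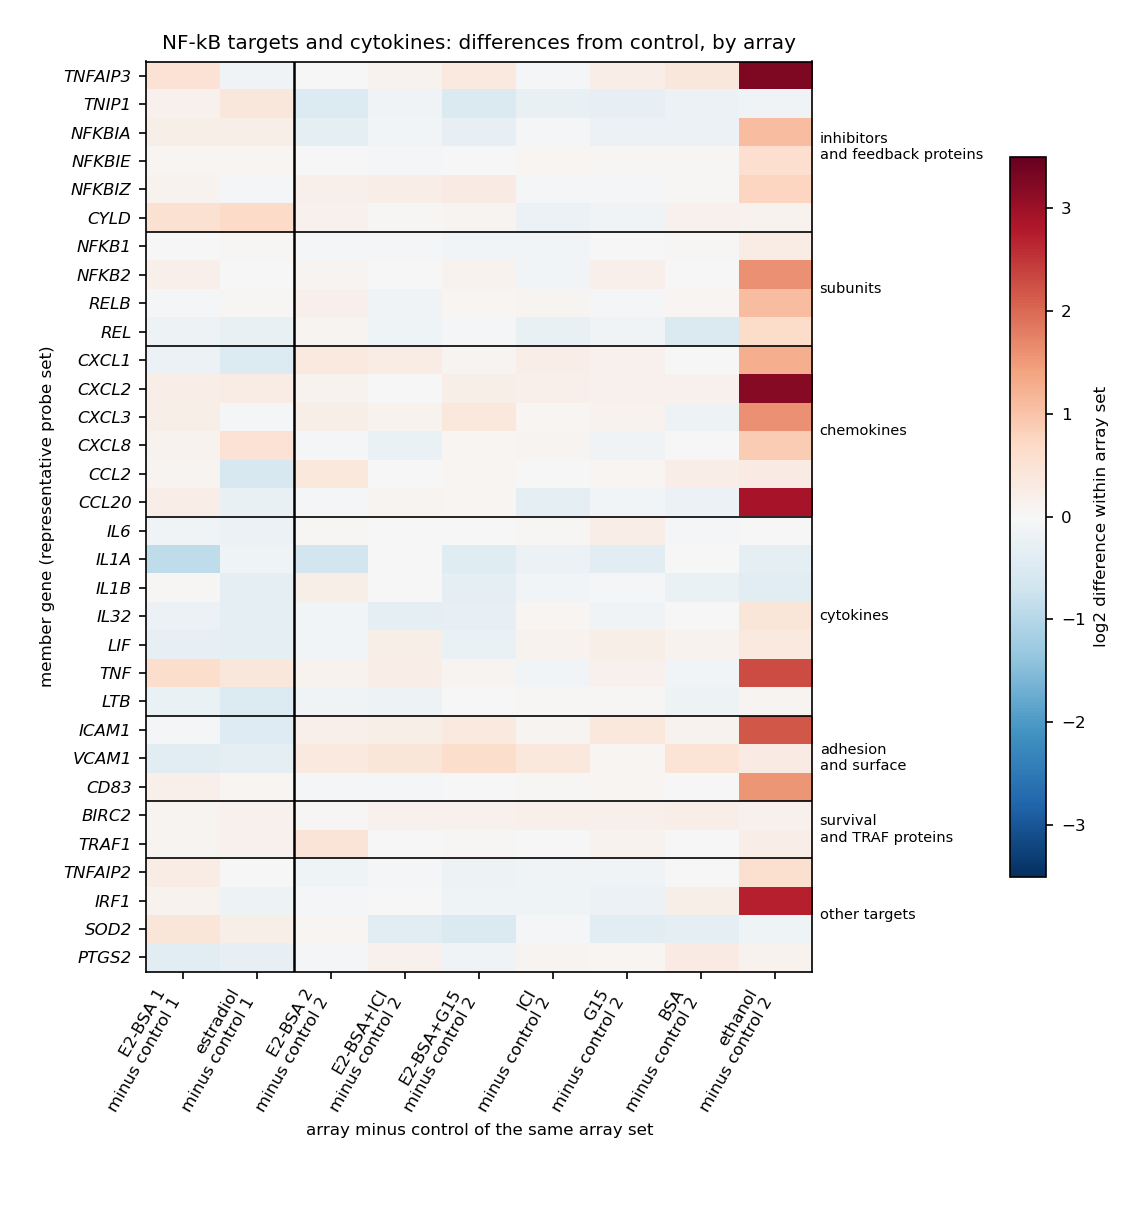
Difference of each array from the control of its own array set (colour, log2) for 1 probe set per gene, the one with the largest spread within the sets, with genes grouped by role (rows). The vertical line separates the 2 arrays compared with control 1 from the 7 compared with control 2. The ethanol column holds the strong positive values, up to 3.26 in TNFAIP3, and no other column reaches 1 in either direction.

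Among inhibitors and feedback proteins, 2 of 6 measured genes rose. TNFAIP3, a ubiquitin-editing enzyme that shuts off NF-kB signalling, read 2.79 on the ethanol array at probe set 202644_s_at, while the other 7 arrays of the larger set lay between -0.55 and -0.06 with a median of -0.34. In the smaller set it read 0.28 on control 1, 0.16 on estradiol and 0.79 on E2-BSA 1. The ethanol array thus stood apart from all 10 others, and the fitted difference from control was 3.39 ± 0.185 (SE), or 10.5-fold (limma adjusted p = 2.42e-06). Its other probe set, 202643_s_at, gave 2.53 ± 0.163 (SE, limma adjusted p = 9.17e-06). NFKBIA, the inhibitor that holds NF-kB dimers in the cytoplasm, read 1.18 on ethanol at 201502_s_at and -0.23 to 0.10 on the other 7 arrays of the larger set. The smaller set read -0.21, -0.02 and -0.01 on control 1, estradiol and E2-BSA 1, again without overlap with ethanol. The fitted NFKBIA difference was 1.21 ± 0.187 (SE, limma adjusted p = 0.0169), while the gene's other probe set gave 0.21 and was not called. The nuclear IkB protein NFKBIZ had a difference of 0.74 (limma adjusted p = 0.117) and the IkB protein NFKBIE 0.60 (0.248), neither called. The deubiquitinase CYLD had 0 of 7 probe sets called, with differences from -0.17 to 0.36, and both probe sets of TNIP1, a partner of TNFAIP3, stayed under 0.09.

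Of the 4 NF-kB subunits, NFKB2 and RELB, the pair that acts in the non-canonical pathway, rose. NFKB2 read 1.62 on ethanol at 207535_s_at, against -0.09 to 0.19 on the other 7 arrays of the larger set. It read -0.27, -0.28 and -0.08 on control 1, estradiol and E2-BSA 1. Ethanol stood above every other array, by a fitted 1.63 ± 0.158 (SE, limma adjusted p = 0.0004), but 2 further NFKB2 probe sets gave 0.05 and 0.09. RELB read 1.22 on ethanol and 0.02 to 0.33 on the other 7 arrays of the larger set. The smaller set was lower for RELB, at -0.30, -0.26 and -0.36, and overlapped with neither the ethanol value nor the rest of the larger set. The fitted RELB difference was 1.01 ± 0.163 (SE, limma adjusted p = 0.0216). REL had 5 probe sets with differences from 0.09 to 0.77 and none called, the smallest adjusted p being 0.136. NFKB1, the precursor of the most common partner in the dimers, had 1 probe set at 0.28, not called.

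Among the chemokines, 5 of 6 genes rose, with differences from 0.21 to 3.21 over the 6. CXCL2, which attracts neutrophils, read 3.00 on ethanol at 209774_x_at, with -0.21 to 0.01 on the other 7 arrays of the larger set. It read 0.12, 0.38 and 0.34 on control 1, estradiol and E2-BSA 1. The gap to the nearest array was wide, and the fitted difference was 3.21 ± 0.158 (SE), or 9.27-fold (limma adjusted p = 1.01e-06). The remaining CXCL2 probe sets gave -0.12 and 0.09, so this result rests on 1 of 3 probe sets. The name suffix _x_at marks a probe set that can also match related sequences, and CXCL1, CXCL2 and CXCL3 are close relatives, so the split of signal between them is uncertain. CCL20, which attracts lymphocytes and dendritic cells and belongs to another chemokine class, read 2.86 on ethanol and -0.35 to 0.07 on the other 7 arrays of the larger set. On control 1, estradiol and E2-BSA 1 it read 0.18, -0.07 and 0.41. No other array came near the ethanol value of CCL20, whose fitted difference was 2.97 ± 0.166 (SE), or 7.84-fold (limma adjusted p = 2.7e-06).

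CXCL3 and CXCL1, further neutrophil attractants, rose less. CXCL3 read 1.53 on ethanol and -0.23 to 0.29 on the other 7 arrays of its set, with -0.04, -0.08 and 0.17 in the smaller set, a fitted difference of 1.60 ± 0.157 (SE, limma adjusted p = 0.000439). CXCL1 read 1.08 on ethanol and -0.21 to 0.15 on the other 7, with 0.41, -0.07 and 0.21 in the smaller set, a fitted difference of 1.13 ± 0.187 (SE, limma adjusted p = 0.0252) that was 0.73 without control 2. CXCL8, known as interleukin-8, was split between its probe sets. At 202859_x_at it read 0.86 on ethanol and -0.26 to 0.07 on the other 7 arrays, with estradiol the next highest at 0.51. The fitted CXCL8 difference there was 0.93 ± 0.160 (SE, limma adjusted p = 0.0325), the weakest of the 15 called, and 211506_s_at gave 0.13. The monocyte attractant CCL2 differed by 0.21 and was not called.

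Of 7 cytokines, TNF alone was called. TNF, both an activator and a target of NF-kB, read 2.24 on ethanol and -0.15 to 0.19 on the other 7 arrays of the larger set. The smaller set read -0.31, 0.08 and 0.30 on control 1, estradiol and E2-BSA 1. Ethanol was above all other arrays, with a fitted difference of 2.41 ± 0.183 (SE), or 5.31-fold (limma adjusted p = 4.63e-05). The other cytokines ranged from -0.41 to 0.39 over their 9 probe sets, with IL1A and IL1B at the low end, IL6 at -0.064 and IL32 at the high end. None of those 9 was called.

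ICAM1 and CD83 rose among the 3 adhesion and surface genes. ICAM1, the endothelial and epithelial ligand of leukocyte integrins, read 2.13 on ethanol at 202638_s_at, against -0.04 to 0.32 on the other 7 arrays of the larger set. It was lower in the smaller set, at -0.43, -0.88 and -0.51 on control 1, estradiol and E2-BSA 1. Ethanol did not overlap with either set, and the fitted difference was 2.11 ± 0.163 (SE), or 4.32-fold (limma adjusted p = 4.96e-05). Its other probe sets gave 0.62 and 0.17 and were not called. CD83, a surface protein best known from mature dendritic cells, read 1.53 on ethanol and -0.05 to 0.05 on the other 7 arrays of its set, with -0.13, -0.06 and 0.04 in the smaller set. The 10 other CD83 values lay close together, and the fitted difference was 1.59 ± 0.162 (SE, limma adjusted p = 0.000555). VCAM1, an adhesion molecule for lymphocytes, differed by 0.10.

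IRF1, a transcription factor shared by the interferon and NF-kB responses, had both probe sets called. At 202531_at it read 2.80 on ethanol and -0.11 to 0.29 on the other 7 arrays of the larger set, with -0.19, -0.36 and -0.07 on control 1, estradiol and E2-BSA 1. The fitted IRF1 difference was 2.75 ± 0.160 (SE), or 6.73-fold (limma adjusted p = 3.72e-06), and 238725_at gave 2.00. The remaining targets were not called, with TNFAIP2 at 0.65, SOD2 at -0.063 and the cyclooxygenase PTGS2 at 0.05 or below. The survival protein BIRC2 and the adaptor TRAF1 differed by 0.18 and by at most 0.29, also not called.

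**Figure D3:**
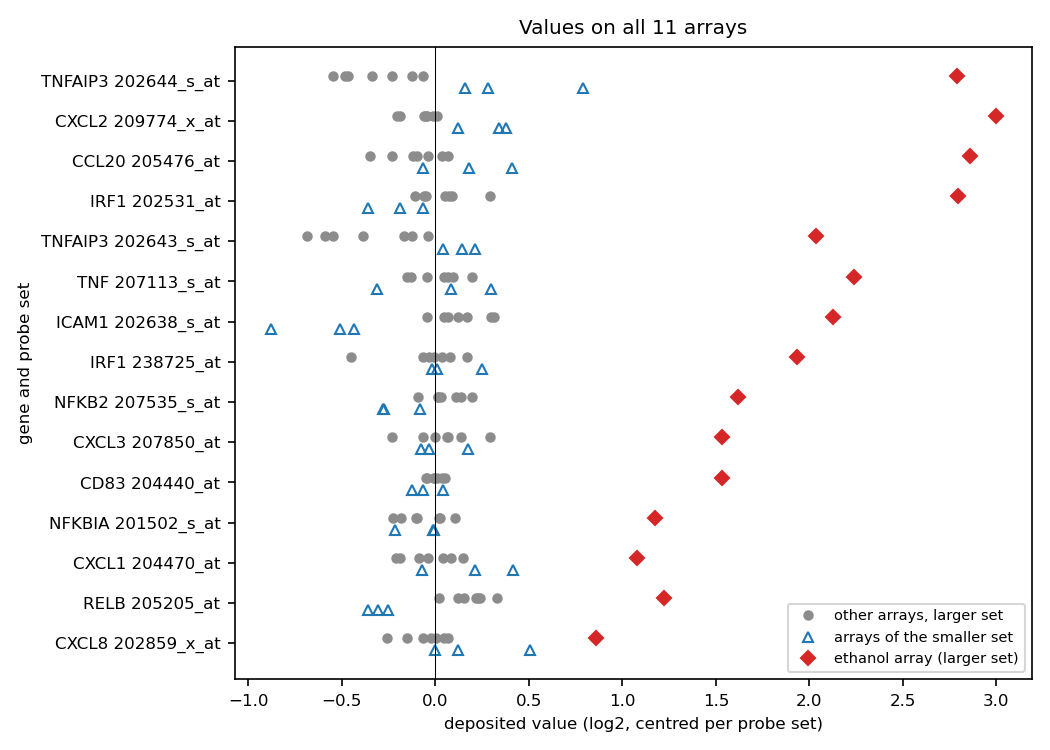
Deposited values (log2, centred per probe set, horizontal axis) on all 11 arrays for the 15 member probe sets called higher on ethanol (rows). Red diamonds are the ethanol array, grey points the other 7 arrays of the larger set and open blue triangles the 3 arrays of the smaller set. The ethanol value lies to the right of the other 10 in every row, at 0.86 for CXCL8 up to 3.00 for CXCL2. The rows were picked by that call, so a high ethanol position was favoured in advance.

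Differences were also taken directly within the larger set, with no fit. Ethanol was at least 1 above control 2 in 14 of the 60 member probe sets, against 0.167% of all probe sets. The ethanol array was the highest of the 8 arrays of its set in 34 of 60, against 14.2% of all. It lay at least 0.5 above each of the other 7 arrays in 21 of 60, against 0.375%, and at least 1 above in 12 of 60, against 0.0842%. Across the other 7 arrays the members had a median SD of 0.133, against 0.120 over all probe sets. Among all 54613 probe sets ranked by ethanol minus control 2, 11 of the 40 highest belonged to members. The RNA integrity measure of ACTB was 0.00037 on the ethanol array, the highest of the larger set, and -0.371 on control 2, the lowest. The GAPDH and 18S control values of the ethanol array (-0.101 and -0.242) lay inside that set's range. The part of RNA quality in these differences was not tested.

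**Figure D4:**
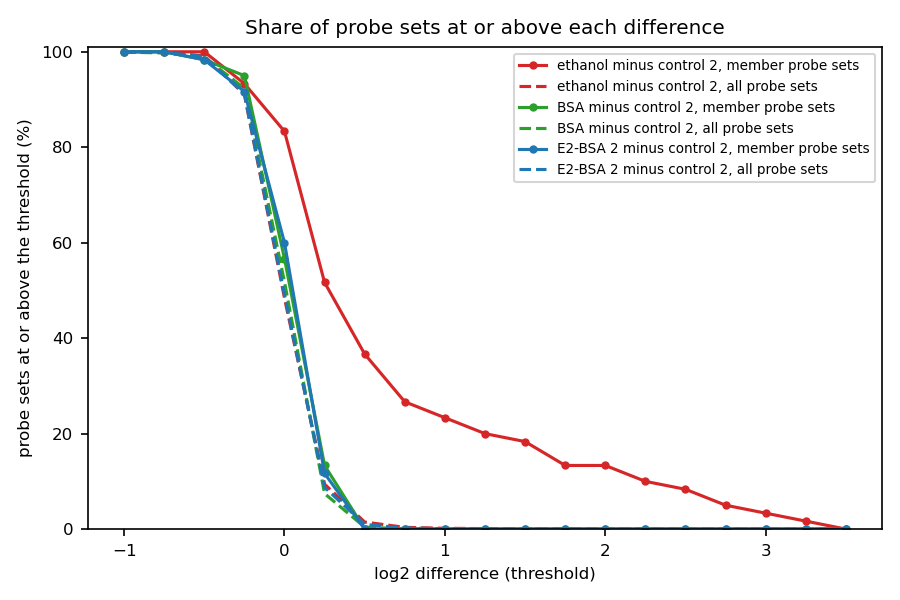
Share of probe sets (vertical axis, percent) whose difference from control 2 is at or above each log2 threshold (horizontal axis), for the 60 member probe sets (solid) and all 54613 (dashed). At a threshold of 1 the ethanol curve stands at 23.33% of members against 0.1666% of all, while BSA and E2-BSA stand at 0 of the members.

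One ethanol array carries this result. The spread used in the main fit came only from the 4 arrays of control and E2-BSA, and no ethanol array was repeated. The count fell from 15 to 0 without the block, to 4 after quantile normalization and, in an additive model that called 11, to 5 without control 2 and 10 without control 1, E2-BSA 1 or E2-BSA 2. In the settings without the block and with quantile normalization, all 15 differences kept their sign. The 4 probe sets still called after quantile normalization were those of CXCL2 and CCL20 and both of TNFAIP3. The rest, among them those of IRF1, TNF, ICAM1, CXCL3, CD83 and NFKB2, were not called there. The 4 probe sets that the additive model did not call were those of NFKBIA, CXCL1, RELB and CXCL8, and the larger set alone did not call these 4 or IRF1 238725_at.

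Estradiol was compared with control and with its vehicle. Against control, 0 of 60 member probe sets were called (0.167% of all probe sets were), with a smallest adjusted p of 0.338. At an unadjusted p under 0.05 there were 7 of 60, against 9.20% of all probe sets. The 15 probe sets that were higher on ethanol differed from control 1 by -0.485 to 0.507 on the estradiol array, with 6 of 15 positive. The extremes among all members in the fit were CYLD at 0.59 and CCL2 at -0.48. The amount of ethanol on the estradiol array is not given in the sources used here.

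Estradiol minus ethanol had 12 of 60 member probe sets called lower, from 10 genes, and 0 higher, while 0.163% of all probe sets were called in either direction and 0.103% lower. This comparison shares the ethanol array with ethanol minus control and the estradiol array with estradiol minus control, and it joins the 2 array sets through the block. All 12 were among the 15 called above. The differences included -3.65 ± 0.243 (SE, limma adjusted p = 3.47e-05) for TNFAIP3, -3.29 ± 0.217 (SE) for CCL20, -2.98 ± 0.207 (SE) for CXCL2, -2.96 ± 0.209 (SE) for IRF1 and -2.14 ± 0.240 (SE) for TNF. NFKBIA, RELB and CXCL8 were the called genes of the ethanol comparison that were not called here. The count was 0 without the block and 0 after quantile normalization. The additive model called 8. Leaving out control 1 gave 2, as did leaving out E2-BSA 1, and leaving out control 2 gave 5, as did leaving out E2-BSA 2.

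**Figure D5:**
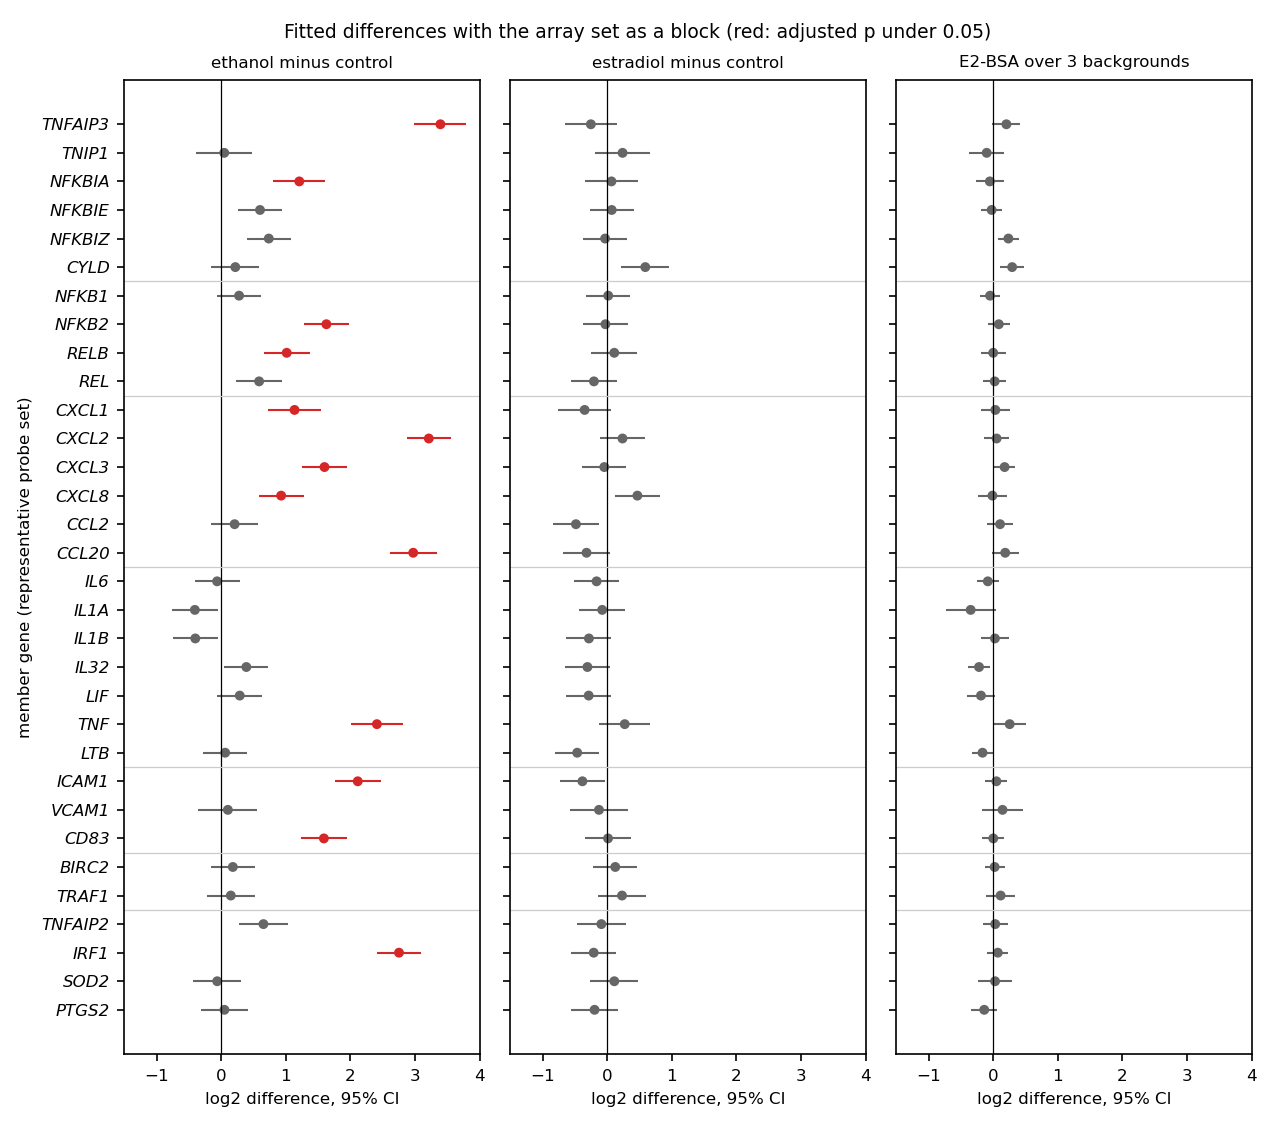
Fitted log2 differences (horizontal axis) with 95% confidence intervals for 1 probe set per gene, in ethanol minus control, estradiol minus control, and E2-BSA over 3 backgrounds. Red marks an adjusted p under 0.05. The 13 red genes stand in the ethanol panel, while no gene is red in the other panels, where TNFAIP3 is at -0.25 and 0.21.

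The surface-directed conjugate E2-BSA was the agent with replicate arrays. In E2-BSA minus control, 1 of 60 member probe sets was called, against 0.657% of all probe sets, a share of the members close to the background. It was 208200_at of IL1A, a proinflammatory cytokine of the interleukin-1 family, which fell. IL1A read 0.01 on control 1 and -0.89 on E2-BSA 1, and 0.33 on control 2 and -0.31 on E2-BSA 2. Both sets showed the lower value with E2-BSA, by 0.90 and 0.64, and the fitted difference was -0.77 ± 0.124 (SE), or 1.70-fold lower (limma adjusted p = 0.0152). On the single arrays IL1A read -0.13 with estradiol, -0.01 with ethanol, 0.35 with BSA, 0.12 with ICI, -0.06 with G15, 0.31 with E2-BSA and ICI, and -0.10 with E2-BSA and G15. The difference was thus not seen with E2-BSA and ICI against ICI (0.19) and was small with E2-BSA and G15 against G15 (-0.05). The change in the E2-BSA effect was 0.95 with ICI (95% CI 0.49 to 1.42, limma adjusted p = 0.131) and 0.72 with G15 (95% CI 0.26 to 1.19, limma adjusted p = 0.342), neither called. The gene's other probe set, 210118_s_at, differed by -0.0040 in the smaller set and 0.29 in the larger. The IL1A call was lost without the block, after quantile normalization, in the additive model and in the larger set alone.

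Averaged over 3 backgrounds (alone, with ICI and with G15), E2-BSA changed 0 of 60 member probe sets by the adjusted p, while 0.244% of all probe sets were called. There were 11 of 60 at an unadjusted p under 0.05, against 8.45% of all probe sets. The smallest adjusted p was 0.300, for CYLD at 0.34 ± 0.0878 (SE). The 15 probe sets called higher on ethanol differed by -0.052 to 0.299 here, with 95% confidence intervals that together ran from -0.294 to 0.565. These intervals lie below the smallest of the 15 ethanol differences, 0.93, but the ethanol intervals reached down to 0.580. The 15 were picked because they were high on the ethanol array, so a smaller difference here was favoured in advance. The 2 estimates were not tested against each other. E2-BSA against its carrier BSA had 0 of 60 called (0.152% of all), with IL1A at -0.72 and an adjusted p of 0.168.

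No member was called with ICI, G15 or the carrier. ICI over 2 backgrounds had 0 of 60 called (0.0% of all) and 1 at an unadjusted p under 0.05 (4.36% of all), with limma. G15 over 2 backgrounds had 0 of 60 called (0.0% of all) and 4 at an unadjusted p under 0.05 (3.72% of all). Over the 32 genes the differences ran from -0.26 to 0.22 with ICI and from -0.49 to 0.30 with G15. BSA minus control had 0 of 60 called (0.0494% of all) and 3 at an unadjusted p under 0.05 (4.95% of all). Its differences over the 32 genes ran from -0.57 for REL to 0.54 for TNFAIP3. TNFAIP3 thus had a positive but uncalled difference with the carrier (limma adjusted p = 0.758), far under its difference of 3.39 with ethanol. The change of the E2-BSA effect had 0 of 60 called with ICI present (0.011% of all) and 0 of 60 with G15 present (0.0% of all). At an unadjusted p under 0.05 there were 3 (7.58% of all) and 5 (8.01% of all). Estradiol against E2-BSA, the free against the albumin-linked hormone at the same 1 µM, had 0 of 60 called (0.0% of all) and 9 at an unadjusted p under 0.05. For that pair the widest differences were -0.71 (95% CI -1.07 to -0.35, limma adjusted p = 0.320) for CCL2 and 0.69 (95% CI 0.33 to 1.05, limma adjusted p = 0.320) for IL1A, so differences of this size are not excluded by the data.

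The rest of the pathway was read from 3 further lists, also written with earlier results of these data known. Medians over genes take 1 probe set per gene, the one with the largest SD within the sets. Of 24 signalling components (receptors, adaptors and kinases upstream of NF-kB), 21 were measured. With ethanol, 0 of their 48 probe sets were called (0.287% of all), too few probe sets to tell 0 from that share. The median difference was 0.20 against 0.003 over all genes. With E2-BSA, 1 of the list's 48 probe sets was called against control (0.657% of all) and over 3 backgrounds (0.244% of all). It was 1 of 2 probe sets of IL1R1, the receptor for IL1A and IL1B, with differences of -0.82 ± 0.119 (SE, limma adjusted p = 0.00755) and -0.73 ± 0.0765 (SE, limma adjusted p = 0.0216). The gene's other probe set gave -0.23 and 0.056, not called. Among 26 measured further targets of NF-kB, 1 of 72 probe sets was called higher with ethanol, against 0.227% of all. It was that of EFNA1, a ligand of Eph receptors, at 0.99 ± 0.160 (SE, limma adjusted p = 0.0223). The list's median was 0.12. With E2-BSA, 1 of the list's 72 probe sets was called, against 0.657% of all, that of the early response gene IER3 at 0.82 ± 0.142 (SE, limma adjusted p = 0.0216). IER3 stood at 0.81 ± 0.188 (SE) with ethanol, not called (limma adjusted p = 0.168). For the change of the E2-BSA effect with ICI, 1 of the 72 was called (0.011% of all), 1 of 14 probe sets of the caspase inhibitor CFLAR, at 1.63 ± 0.213 (SE, limma adjusted p = 0.0454). The other CFLAR probe sets lay between -0.36 and 0.32. The CFLAR call was lost without the block, after quantile normalization and with only probe sets annotated to 1 gene. The IL1R1 and IER3 calls in E2-BSA minus control were lost without the block and after quantile normalization. Without the block, the IL1R1 call over 3 backgrounds was lost too. In each of these settings 0 of all probe sets were called.

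Immediate early genes, which many stimuli induce within an hour, moved together with the NF-kB targets on the ethanol array. Of 11 measured genes, 6 rose (ATF3, DUSP1, EGR1, JUN, JUNB and ZFP36), and the median over the 11 was 0.86, against 0.003 over all genes. Both medians take, for each gene, the probe set with the largest SD within the sets. The ethanol array enters that SD, which favours a probe set that rose on it. The calls covered 9 of the list's 26 probe sets, against the 0.227% called higher over all. JUN had 4 of 4 probe sets called, JUNB and ZFP36 their single one, and ATF3, DUSP1 and EGR1 1 of 3 each. The uncalled probe sets gave -0.0015 and 0.70 for ATF3, -0.34 and 0.19 for DUSP1 and 0.70 and 0.98 for EGR1. ATF3, a stress-induced transcription factor, differed by 3.41 ± 0.157 (SE, limma adjusted p = 8.81e-07), and JUN, a subunit of AP-1, by 2.27 ± 0.163 (SE). ZFP36, which destabilises cytokine mRNAs such as that of TNF, differed by 0.86 ± 0.157 (SE, limma adjusted p = 0.0446). Their part in the rise of the NF-kB targets was not tested.

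The array sets themselves separated some members. The 2 sets did not overlap in 15 of 60 member probe sets, against 37.0% of all probe sets, a share below the background. The larger set includes the ethanol array, whose high member values can bring the sets into overlap. TNFAIP3 202644_s_at overlapped only through ethanol, with at most -0.06 on the other 7 arrays of the larger set and at least 0.16 in the smaller set. The low share is therefore not read as a trait of the members. REL 239486_at had the largest difference between set means, with 1.16 ± 0.138 (SD, n = 3) in the smaller and -0.42 ± 0.333 (SD, n = 8) in the larger set. SOD2 differed the other way, at -0.73 ± 0.212 (SD, n = 3) against 0.23 ± 0.209 (SD, n = 8), as did TNIP1 207196_s_at, at -0.85 ± 0.0765 (SD, n = 3) against 0.09 ± 0.0657 (SD, n = 8). For these genes a comparison across sets without the block would mix the set with the treatment.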

How the data were processed

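RNA from 11 T47D samples was measured on 11 HG-U133 Plus 2 arrays. The deposited log2 values, 1 per probe set and array, were centred for each probe set by the authors, as read from the values, and the log base was read from their size. Summarisation, normalization and build are not given in the sources used here. Centred values hold no level, so no filter on low values could be applied and no depth applies; the number of arrays limits the precision.

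Probe sets were named from GEO's platform annotation (2016): 41091 carried 1 symbol (41037 matched in RefSeq), 1801 several and 11721 none. The 62 control probe sets were left out. Differences were fitted with limma 3.58.1 in R 4.3.3 (lmFit, eBayes), as group means plus array set over 11 arrays, which leaves 1 residual degree of freedom besides the 11.3 lent by all probe sets, or as E2-BSA, ICI and G15 terms plus array set over 8 arrays, with 3 and 4.98. P-values were Benjamini-Hochberg adjusted over 54613 probe sets. The group-means fit was run on simulated data with a common spread for all probe sets. That checks the code and does not test the fit on the unequal spreads of the real arrays. Replicate numbers of control and E2-BSA coincide with the array sets.

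The members and lists were chosen with earlier results of these data known. Per-array values are given for members called in any comparison or differing by 1 or more within a set. In figures, gene medians and gene ranges, a gene with several probe sets is represented by the one with the largest SD within sets. This favours a probe set that moved. Alternatives were no block, quantile normalization, robust eBayes, single-symbol probe sets, gene means, an additive model, the larger set alone and leaving out arrays.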

Additional observations from a re-analysis of the deposited data

How the results depend on the processing

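Counts of member probe sets called were recomputed under each alternative. For ethanol minus control the count of 15 became 0 without the array set and replicate block and 4 with quantile normalization, and leaving out 1 array of control or E2-BSA in the additive model gave 5 to 10. It was 15 with robust eBayes, 15 with single-symbol probe sets, 11 in the additive model, 10 in the larger set alone and 9 genes when probe sets were averaged. The 15 differences kept their sign in all of these, and with the block, or in the larger set alone, the adjusted p of TNFAIP3 202644_s_at ran from 2.42e-06 to 0.0336, while without it that p was 0.9999. For estradiol minus ethanol the count of 12 became 0 without the block, 0 with quantile normalization and 6 genes when averaged, with 2 to 5 on leaving out an array. For E2-BSA minus control the count of 1 became 0 without the block, with quantile normalization, with gene means, in the additive model, in the larger set alone and on leaving out any of the 4 arrays (0 to 0). The other 9 comparisons stayed at 0 in every setting run. REL 239486_at, not called, changed sign to -0.187 without the block in ethanol minus control. The causes of these changes were not tested. The filter on mean value was not run because centred values hold no level, and group means leave no residual degree of freedom without an array, so the additive model was used there, chosen after seeing the data, as was the larger set alone. No additive fit gives the change of the E2-BSA effect with ICI or G15.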

Other observations

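Outside the NF-kB group, the probe sets highest on the ethanol array relative to control 2 were picked here after their values were seen. MAFF, a small basic leucine zipper factor, was highest at 4.89, followed by CHAC1, a glutathione-degrading enzyme, at 3.84 and ATF3 at 3.39. GDF15 (3.12), INHBE (3.02), PMAIP1 (2.87), DDIT3 (2.41) and SLC7A11 (2.31), all known from stress responses, stood between the NF-kB targets in that order. IRAK2, an interleukin-1 receptor-associated kinase, differed by 1.44, and CEBPB, which acts beside NF-kB at cytokine promoters, by 1.62. These are differences between 2 arrays with no replicate.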
